A study of Sus scrofa with 23 samples.

Results

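Genes of fatty acid and triglyceride synthesis were described in Longissimus, a long muscle along the spine, of 23 pigs at 115 kg body weight. The pigs came from lines selected for residual feed intake (RFI), the feed an animal eats beyond what its growth and maintenance account for. Low-RFI pigs fed freely (labelled RFIneg, n = 7), high-RFI pigs restricted to the feeding level of the low line (RFIplR, n = 8) and high-RFI pigs fed freely (RFIpl, n = 8) were compared, with 1 array for each pig. The labels used here give no sex or breed for the pigs. The members were 10 genes: ACLY, ME1, ACACA, FASN, ELOVL6, SCD, GPAM, DGAT1, DGAT2 and SREBF1. A probe was taken when the array's gene name or the symbol in parentheses in its description was that of a member. This found 19 of the 43603 probes of the array, for 6 of the 10 genes, with 9 probes for SCD, 3 for FASN, 2 each for ACACA, DGAT2 and SREBF1, and 1 for ME1. Another 4 probes carried older names, 3 of ACLY and 1 of DGAT1, and were matched to these genes by RefSeq accession. ELOVL6 and GPAM had no probe under either rule. In all, 8 genes were measured, and 21 of their 23 probes were kept after the filter on dim probes, 18 of them found by the rule. The dim probes left out were probe 2 of ACACA and probe 3 of ACLY.

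New fatty acids are made in the cytosol. ATP citrate lyase (ACLY) cuts citrate into acetyl-CoA, malic enzyme (ME1) supplies NADPH, acetyl-CoA carboxylase (ACACA) makes malonyl-CoA, and fatty acid synthase (FASN) builds palmitate from it. Stearoyl-CoA desaturase (SCD) puts a double bond into saturated fatty acids, and the diacylglycerol acyltransferases DGAT1 and DGAT2 close the synthesis of triglycerides. SREBF1 encodes the transcription factor SREBP-1, a regulator of many of these enzymes. In pigs the pathway is most active in fat tissue, and fat cells also lie between the fibres of the back muscle.

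Several probes of a gene can be set beside each other, which shows whether they gave the same course across pigs. SCD probes 2 and 3 share a run of 27 bases and SCD probes 5 and 6 a run of 21, so these pairs read partly the same stretch. The sequences of 6 probes are given: both probes of DGAT2, which agreed, both of ACACA, which did not, and 1 each of FASN and SCD that followed the brightest probe of its gene. Each is the 60-base probe as the scanner files list it, 5′ to 3′, and probes of a gene are numbered from the brightest.
FASN probe 2: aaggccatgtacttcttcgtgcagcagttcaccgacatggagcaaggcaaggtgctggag
SCD probe 9: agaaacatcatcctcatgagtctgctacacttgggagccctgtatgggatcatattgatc
DGAT2 probe 1: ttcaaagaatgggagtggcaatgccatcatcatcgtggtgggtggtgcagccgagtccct
DGAT2 probe 2: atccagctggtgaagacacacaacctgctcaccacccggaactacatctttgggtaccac
ACACA probe 1: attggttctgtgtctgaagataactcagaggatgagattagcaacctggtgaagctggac
ACACA probe 2: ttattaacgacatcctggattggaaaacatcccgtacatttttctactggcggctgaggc

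Across the 23 pigs and after each group's mean was subtracted, FASN probe 2 followed the brightest FASN probe with a Pearson r of 0.98, while FASN probe 3 had an r of 0.27 with it. FASN probe 3 was well above background on 20 of the 23 arrays. The other 8 SCD probes followed the brightest SCD probe with r between 0.95 and 1, and the lowest of these was the dim probe 9. DGAT2 probe 2 had an r of 0.94 with probe 1, and ACLY probe 2 an r of 0.99 with ACLY probe 1. ACACA probe 2 had an r of -0.10 with probe 1 and was well above background on 13 arrays, so that ACACA rests on 1 probe. SREBF1 probe 2 had an r of 0.78 with probe 1. These correlations are descriptions, since probes of a gene share the same arrays.

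Levels below are the log2 processed signal minus the 75th percentile of that array, so a difference of 1 is a doubling of signal. Between 41.7% and 79.1% of all probes on an array were well above background. The 4 arrays of slide 3 lay between 41.7% and 58.9%, and the other arrays between 58.5% and 79.1%. All 6 slides held pigs of all 3 groups. The muscle fibre markers fitted the labelled tissue, with 12 of 13 on the array and each of these well above background on all 23 arrays. Apart from sums of markers, each probe's level is compared with itself only, because probes differ in brightness for the same amount of RNA. In whole muscle, fewer cells of a type and less RNA per cell cannot be told apart.

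No member differed between the groups past the threshold of a Benjamini-Hochberg adjusted p of 0.05 in limma. For low-RFI against high-RFI pigs, 0 of the 18 kept probes of the rule passed, against 0.122% of all 27799 kept probes, and the lowest adjusted p was 0.298. At an unadjusted p under 0.05 there were 9 of 18, against 11.1% of all probes. Of these, 8 were lower in low-RFI pigs, against 3.91% of all probes, and 1 was higher, against 7.19%. Among the 9, 7 were probes of SCD, which measure the same transcript in the same pigs and are not separate results. For restricted against freely fed high-RFI pigs, 0 of 18 passed in limma, against 0.0036% of all probes, with 0 at an unadjusted p under 0.05 (9.76% of all probes) and a lowest adjusted p of 0.617. For low-RFI against restricted pigs, 0 of 18 passed in limma, against 0.162% of all probes, with 2 at an unadjusted p under 0.05 (10.2% of all probes) and a lowest adjusted p of 0.262. The limma F test over the 3 groups called 0 of 18, against 0.137% of all probes, and 2 of 18 had an unadjusted p under 0.05 (12.5% of all probes). With the probes of ACLY and DGAT1 counted as well, 0 of 21 passed in each of these limma tests, and 11, 0 and 2 had an unadjusted p under 0.05 in the 3 comparisons.

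On the brightest probe of each gene, 5 of the 6 genes of the rule were lower in low-RFI than in high-RFI pigs, with a median log2 difference of -0.54. Over all kept probes the median was 0.02, and 44.7% were lower. In restricted against freely fed high-RFI pigs 4 of 6 genes were lower, with a median of -0.38 against 0.01 over all probes, of which 46.9% were lower. In low-RFI against restricted pigs 4 of 6 were lower, with a median of -0.12 against 0.02 over all probes, of which 45.3% were lower. This last median had no settled sign: it was -0.37 without low-RFI replicate 5, 0.05 without low-RFI replicate 7 and 0.03 without the 4 arrays of slide 3. The first 2 of these comparisons share the freely fed high-RFI pigs. With ACLY and DGAT1 the medians were -0.54, -0.37 and -0.12 over 8 genes. For low-RFI against high-RFI pigs 2 of these genes lost their direction with normexp background correction, ACACA at 0.08 and DGAT1 at 0.00.

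**Figure D1:**
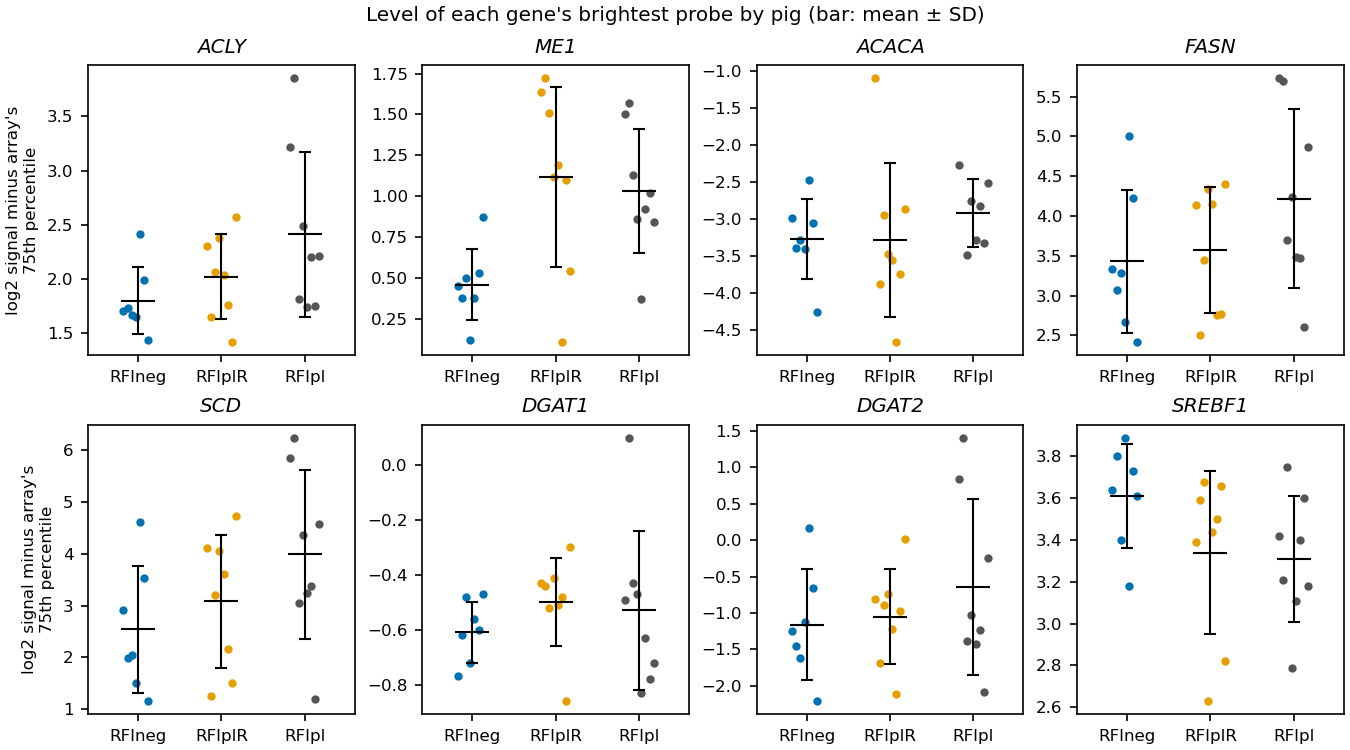
Level of the brightest probe of 8 genes in each pig, as log2 signal after subtraction of the array's 75th percentile (y axis, its own range in each panel), in low-RFI (RFIneg), restricted high-RFI (RFIplR) and freely fed high-RFI (RFIpl) pigs. Points are pigs and bars are mean ± SD. The 3 groups overlap for every gene, and SCD spreads from 1.16 to 6.24 while SREBF1 spreads from 2.63 to 3.89.

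SCD had the widest spread of the members. Its brightest probe had a lowest, median and highest level of 1.16, 2.04 and 4.62 in low-RFI pigs, 1.25, 3.40 and 4.72 in restricted pigs, and 1.20, 3.87 and 6.24 in freely fed high-RFI pigs. The groups overlapped from their lowest pigs, at 1.16 to 1.25, up to 4.62, and above that lay 1 restricted pig and 2 freely fed high-RFI pigs. The mean ± SD was 2.54 ± 1.23 in low-RFI (n = 7), 3.08 ± 1.29 in restricted (n = 8) and 3.99 ± 1.63 in freely fed high-RFI pigs (n = 8). Low-RFI minus high-RFI was -1.45 (SE 0.68, 95% interval -2.86 to -0.05, limma adjusted p = 0.434), a fold of 0.365. Restricted minus freely fed was -0.91 (SE 0.66, -2.27 to 0.45, adjusted p = 0.707), and low-RFI minus restricted was -0.54 (SE 0.68, -1.95 to 0.86, adjusted p = 0.852). With normexp background correction the last 2 were -1.48 and -0.04. The other 8 SCD probes gave -1.46 to -1.08 for low-RFI minus high-RFI. High-RFI replicates 1 and 2, at 5.85 and 6.24, were the highest of all pigs, and low-RFI replicate 5, at 4.62, stood above the other low-RFI pigs. Leaving out 1 pig at a time moved the first difference between -1.85 (without high-RFI replicate 7, the lowest of its group) and -1.13 (without high-RFI replicate 2), and no such fit brought the adjusted p under 0.256.

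FASN, which builds the chain that SCD and the elongases work on, was spread in the same pattern. Its brightest probe had a lowest, median and highest level of 2.42, 3.28 and 5 in low-RFI pigs, 2.51, 3.79 and 4.40 in restricted pigs, and 2.61, 3.97 and 5.73 in freely fed high-RFI pigs. The groups overlapped over most of their range, and the same 2 high-RFI pigs were highest, at 5.73 and 5.70. Low-RFI minus high-RFI was -0.79 (SE 0.46, 95% interval -1.75 to 0.16, limma adjusted p = 0.554), and restricted minus freely fed was -0.66 (SE 0.45, -1.58 to 0.26, adjusted p = 0.681). Low-RFI minus restricted was -0.13 (SE 0.46, -1.09 to 0.82, adjusted p = 0.957). FASN probe 2 gave -0.87, -0.57 and -0.30 for these comparisons, and probe 3, which did not follow the other probes, gave -0.15, -0.19 and 0.04.

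ACLY, upstream of both, had a lowest, median and highest level of 1.44, 1.70 and 2.41 in low-RFI pigs, 1.42, 2.05 and 2.57 in restricted pigs, and 1.74, 2.21 and 3.85 in freely fed high-RFI pigs. High-RFI replicates 1 and 2, at 3.22 and 3.85, stood above every other pig. Low-RFI minus high-RFI was -0.61 (SE 0.26, 95% interval -1.15 to -0.07, limma unadjusted p = 0.0298, adjusted p = 0.381), and probe 2 gave -0.67 (SE 0.29, adjusted p = 0.377). Restricted minus freely fed was -0.39 (adjusted p = 0.668) and low-RFI minus restricted was -0.22 (adjusted p = 0.838). Without high-RFI replicate 2, low-RFI minus high-RFI was -0.40 and restricted minus freely fed was -0.18 on probe 1. Within slides, ACLY was lower in low-RFI than in high-RFI pigs on 6 of 6, with differences of -1.57 to -0.02, while SCD was lower on 4 of 6 (-4.35 to 0.78), FASN on 4 (-3.06 to 0.70), DGAT2 on 3 (-1.96 to 0.70), ACACA on 5, ME1 on 5 and DGAT1 on 4. A slide held only 1 or 2 pigs of each group, so each of these differences rests on few pigs. The share of all probes with the same sign on 6 of 6 slides was not counted.

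ACACA, whose product malonyl-CoA is the building unit for FASN, was dim. Its probe 1 ran from -4.26 to -2.48 with a median of -3.29 in low-RFI pigs, from -4.66 to -1.10 with a median of -3.51 in restricted pigs, and from -3.49 to -2.27 with a median of -2.82 in the 7 freely fed high-RFI pigs with a value. The spot of high-RFI replicate 2 was set to missing by the scanner's outlier mark and the fit left it out. Restricted replicate 1, at -1.10, was the highest of all pigs by more than 1 log2 unit. The differences were -0.34 (SE 0.38), -0.35 (SE 0.36) and 0.01 (SE 0.36) for low-RFI minus high-RFI, restricted minus freely fed and low-RFI minus restricted, with limma adjusted p of 0.806, 0.834 and 0.997. The first 2 turned positive with normexp background correction (0.08 and 0.59).

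ME1 was the member with the smallest p in 2 of the 3 comparisons. Its probe had a lowest, median and highest level of 0.12, 0.45 and 0.87 in low-RFI pigs, 0.11, 1.16 and 1.72 in restricted pigs, and 0.37, 0.97 and 1.57 in freely fed high-RFI pigs. The low-RFI pigs lay in the lower part of the range, and 2 restricted and 3 freely fed high-RFI pigs stood no higher than their highest. The mean ± SD was 0.46 ± 0.22 in low-RFI (n = 7), 1.12 ± 0.55 in restricted (n = 8) and 1.03 ± 0.38 in freely fed high-RFI pigs (n = 8). Low-RFI minus restricted was -0.65 (SE 0.21, 95% interval -1.08 to -0.23, limma unadjusted p = 0.00442, adjusted p = 0.262), and low-RFI minus high-RFI was -0.57 (SE 0.21, -0.99 to -0.14, unadjusted p = 0.0119, adjusted p = 0.298). Restricted minus freely fed was 0.09 (SE 0.20, -0.33 to 0.50, adjusted p = 0.947). ME1 was thus unlike SCD, FASN and ACLY in the order of its means, in which the restricted pigs lay with the freely fed high-RFI pigs.

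The 4 arrays of slide 3 bore on ME1. They were low-RFI replicate 7, restricted replicates 6 and 8 and high-RFI replicate 5, which were the highest of the low-RFI pigs (0.87), the 2 lowest of the restricted pigs (0.11 and 0.54) and the lowest of the freely fed high-RFI pigs (0.37). On all 23 arrays the low-RFI pigs overlapped both other groups in ME1. Without slide 3 ME1 was between 0.12 and 0.53 in the other 6 low-RFI pigs. In the other 6 restricted pigs it was between 1.10 and 1.72, and in the other 7 freely fed high-RFI pigs between 0.84 and 1.57. The low-RFI pigs then overlapped neither group, and the share of all probes that separate the groups in this way was not counted. In the fit without slide 3 low-RFI minus restricted was -0.99 (SE 0.15, limma adjusted p = 0.00724), past the threshold, as were 0.054% of all probes. Low-RFI minus high-RFI was -0.73 (SE 0.14, adjusted p = 0.0643), where 0.0648% of all probes passed. The limma F test of that fit called ME1 among 0.0719% of all probes. Both differences were thus larger without the 4 arrays than with them, and leaving out slide 3 was chosen after the data were seen. With normexp background correction on all arrays, low-RFI minus restricted was -0.28. Over the 23 arrays, with group means subtracted, ME1 had a Pearson r of 0.45 (permutation p = 0.0278) and a Spearman rho of 0.44 (p = 0.0378) with the share of probes well above background, and adjusted over the 8 genes these p were 0.186 and 0.151. The r was 0.57 without the 2 arrays farthest from the median, and 0.50 and 0.26 within the 2 scan days. SREBF1 had an r of 0.34 (permutation p = 0.117, adjusted p = 0.234) and a rho of 0.52 (p = 0.013, adjusted p = 0.104) with that share, and an r of 0.57 without the 2 farthest arrays.

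A further probe, named by an Ensembl transcript and listed with the same GenBank record as the ME1 probe, was looked up after its values were seen. It averaged 2.26 ± 0.21 in low-RFI, 2.35 ± 0.31 in restricted and 2.37 ± 0.28 in freely fed high-RFI pigs (SD, n = 7, 8 and 8). Its differences were smaller than those of the ME1 probe, at -0.09 (SE 0.14, limma adjusted p = 0.88) for low-RFI minus restricted and -0.11 (SE 0.14, adjusted p = 0.842) for low-RFI minus high-RFI. Without slide 3 they were -0.23 (SE 0.13, adjusted p = 0.773) and -0.24 (SE 0.13, adjusted p = 0.607). Across pigs the 2 probes had a Pearson r of 0.69 and a Spearman rho of 0.62 (n = 23, group means subtracted).

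**Figure D2:**
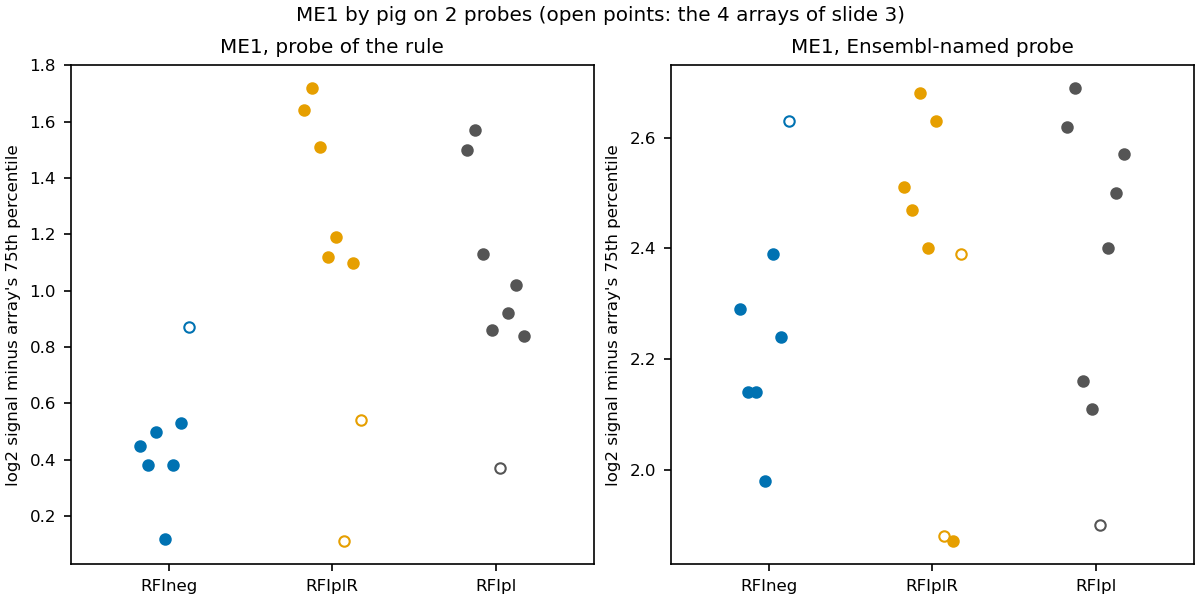
ME1 level in each pig as log2 signal after subtraction of the array's 75th percentile (y axis) in low-RFI (RFIneg), restricted (RFIplR) and freely fed high-RFI (RFIpl) pigs, on the probe of the rule (left) and on the Ensembl-named probe (right). Open points are the 4 arrays of slide 3. On the left the filled points of the low-RFI pigs, 0.12 to 0.53, lie below those of both other groups, and on the right the groups overlap. With the open points included, the groups overlap on the left as well.

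Of the enzymes that complete triglycerides, DGAT2 had a lowest, median and highest level of -2.21, -1.25 and 0.17 in low-RFI pigs, -2.12, -0.93 and 0.02 in restricted pigs, and -2.08, -1.13 and 1.41 in freely fed high-RFI pigs. The medians were close and 2 high-RFI pigs, at 0.84 and 1.41, stood above all others. Its differences were -0.52 (SE 0.44), -0.41 (SE 0.43) and -0.11 (SE 0.44) for low-RFI minus high-RFI, restricted minus freely fed and low-RFI minus restricted, with limma adjusted p of 0.733, 0.842 and 0.963. Without high-RFI replicate 2, its highest pig, the first was -0.23 and the second -0.11. DGAT1 varied little, and averaged -0.61 ± 0.11 in low-RFI, -0.50 ± 0.16 in restricted and -0.53 ± 0.29 in freely fed high-RFI pigs (SD, n = 7, 8 and 8). The 95% interval of its low-RFI minus high-RFI difference was -0.31 to 0.16, around -0.07 (limma adjusted p = 0.871). GPAM, the acyltransferase of the first step, had no probe under its name. Of 2 probes that the files name GPAT and describe as a mitochondrial glycerol-3-phosphate acyltransferase, looked up after their values were seen, the brighter averaged -2.01 ± 0.43 in low-RFI, -1.42 ± 0.39 in restricted and -1.80 ± 0.19 in freely fed high-RFI pigs. Low-RFI minus restricted was -0.59 on that probe (SE 0.18, limma unadjusted p = 0.0029, adjusted p = 0.225) and -0.31 on the other (SE 0.13, adjusted p = 0.424). Both were smaller without slide 3, at -0.45 (SE 0.19, limma adjusted p = 0.633) and -0.20 (SE 0.14, adjusted p = 0.837).

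SREBF1, the regulator among the members, was the 1 gene of the 8 that was higher in low-RFI than in high-RFI pigs. Its brighter probe had a lowest, median and highest level of 3.18, 3.64 and 3.89 in low-RFI pigs, 2.63, 3.47 and 3.68 in restricted pigs, and 2.79, 3.31 and 3.75 in freely fed high-RFI pigs. The groups overlapped, with 3 low-RFI pigs at 3.73 to 3.89 in the upper end. Low-RFI minus high-RFI was 0.30 (SE 0.16, 95% interval -0.04 to 0.64, limma adjusted p = 0.514) and low-RFI minus restricted was 0.27 (SE 0.16, -0.07 to 0.61, adjusted p = 0.601), while restricted minus freely fed was 0.03 (SE 0.16, adjusted p = 0.982). With normexp background correction these were 0.09, 0.80 and -0.70. Probe 2 gave 0.25 (SE 0.11, limma unadjusted p = 0.0311, adjusted p = 0.387), 0.25 (SE 0.11, unadjusted p = 0.0282, adjusted p = 0.425) and 0.00. On each of the 6 slides SREBF1 was higher in low-RFI than in high-RFI pigs, by 0.01 to 0.51. Here too a slide compared only 1 or 2 pigs of each group, and the share of all probes with such a course was not counted.

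**Figure D3:**
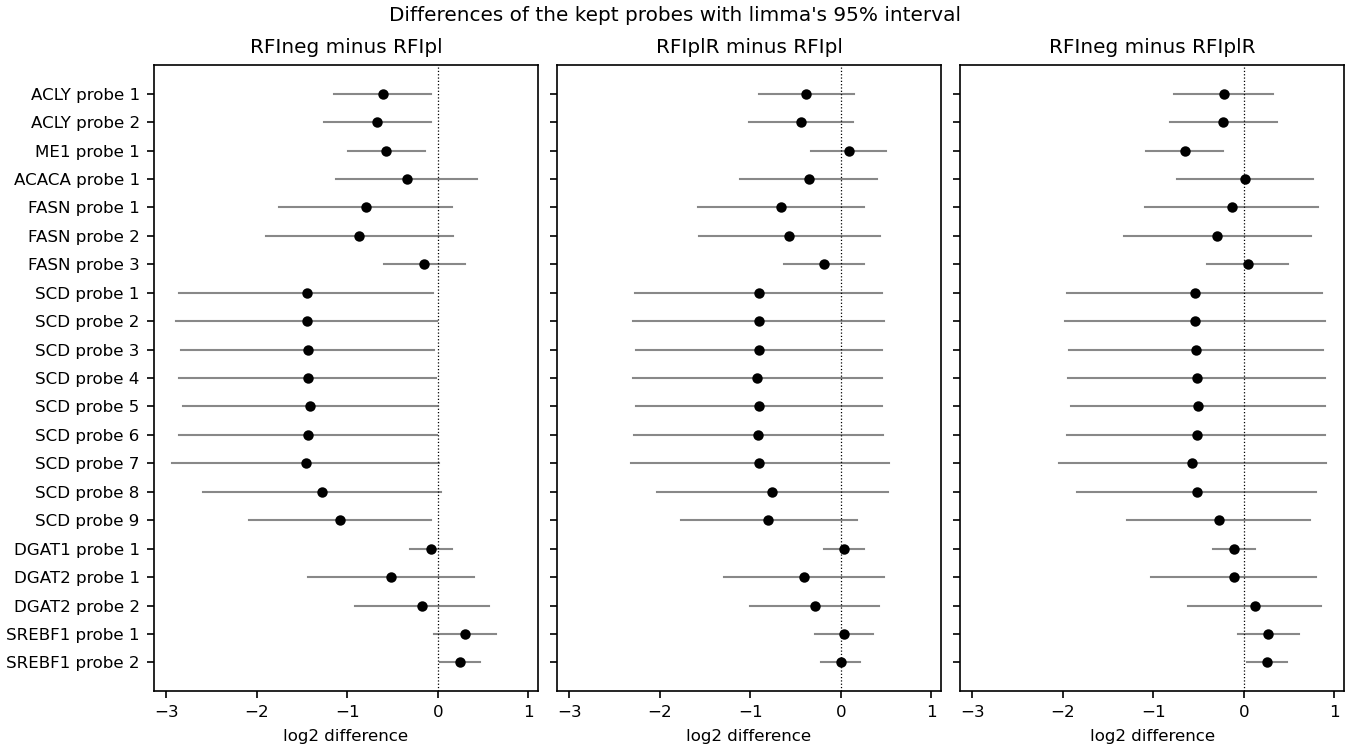
Log2 differences of the 21 kept probes (points) with limma's 95% intervals (lines) for low-RFI minus high-RFI, restricted minus freely fed high-RFI and low-RFI minus restricted pigs. Probes are ordered by step of the pathway, and the dotted line marks no difference. The SCD probes lie furthest left in the first 2 panels, ME1 (-0.65) lies furthest left in the last, and no interval belongs to a probe with an adjusted p under 0.05.

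Pigs of the same group differed widely in several of these genes. The within-group SD of SCD was 1.40, rank 107 from the highest among the 27799 kept probes, where the median SD was 0.30, and its highest pig had 33.9 times the signal of its lowest. The within-group SD was 0.95 for FASN, 0.91 for DGAT2, 0.75 for ACACA and 0.54 for ACLY, which lay at the percentiles 98.4, 98.1, 95.8 and 86.1 of all kept probes. ME1 had an SD of 0.42 (percentile 72), SREBF1 of 0.32 (percentile 54.8) and DGAT1 of 0.21 (percentile 24).

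The variable genes varied together. All correlations here are over pigs with group means subtracted, and p-values come from 100000 permutations within groups, adjusted over the 28 pairs of the 8 genes. The 2 farthest pigs left out are those farthest from the median of 1 gene of the pair, so they can differ between pairs. FASN and SCD had a Pearson r of 0.97 and a Spearman rho of 0.97, both with permutation p = 1e-05, the smallest that these permutations can give, and adjusted p = 5.6e-05. The r was 0.98 in low-RFI, 0.97 in restricted and 0.97 in freely fed high-RFI pigs, 0.98 and 0.99 within the 2 scan days, and 0.97 without the 2 pigs farthest from the median. SCD had an r of 0.89 with ACLY and 0.88 with DGAT2 (rho 0.91 and 0.84, adjusted permutation p = 5.6e-05 for each), and 0.90 and 0.83 without the 2 farthest pigs. ACACA had an r of 0.67 with SCD over 22 pigs (rho 0.83, adjusted permutation p = 0.000902 and 8e-05), and 0.81 without the 2 farthest pigs.

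Over all pigs ME1 did not go with this group, with an r of 0.14 and a rho of 0.12 with SCD (adjusted permutation p = 0.546 and 0.686). The r of ME1 with SCD was -0.17 in low-RFI, -0.10 in restricted and 0.55 in freely fed high-RFI pigs. Within the 2 scan days it was 0.06 and 0.43. SREBF1 ran against SCD and FASN. Its r with SCD was -0.55 and its rho -0.57 (adjusted permutation p = 0.0223 and 0.0183), with r of -0.58 in low-RFI, -0.70 in restricted and -0.41 in freely fed high-RFI pigs, -0.58 and -0.52 within the scan days, and -0.54 without the 2 farthest pigs. With FASN its r was -0.50 and its rho -0.53 (adjusted permutation p = 0.0358 and 0.0308). With ACLY, DGAT2 and ACACA the r of SREBF1 was also negative, at -0.44, -0.34 and -0.24, but the adjusted permutation p were 0.0753, 0.17 and 0.406. DGAT1 had an r of 0.53 with SCD (adjusted permutation p = 0.0401), but its rho was 0.40 (adjusted p = 0.128), and its r was 0.31 without the 2 pigs farthest in SCD. This r was 0.49 and 0.61 within the scan days, and -0.09 in low-RFI, 0.63 in restricted and 0.68 in freely fed high-RFI pigs. With ACLY the r of DGAT1 was 0.74 (adjusted permutation p = 0.00346, rho 0.50, adjusted p = 0.0531) and 0.57 without the 2 pigs farthest in ACLY. With FASN it was 0.51 (adjusted permutation p = 0.0448, rho 0.35, adjusted p = 0.183) and 0.56 without the 2 pigs farthest in FASN. The pigs farthest in FASN were not those farthest in SCD, so these values are not a like comparison. Over the 15 pairs of the 6 genes of the rule the median r was 0.27, with 6 pairs over 0.5 and 4 below 0, and over the 28 pairs of 8 genes it was 0.44.

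**Figure D4:**
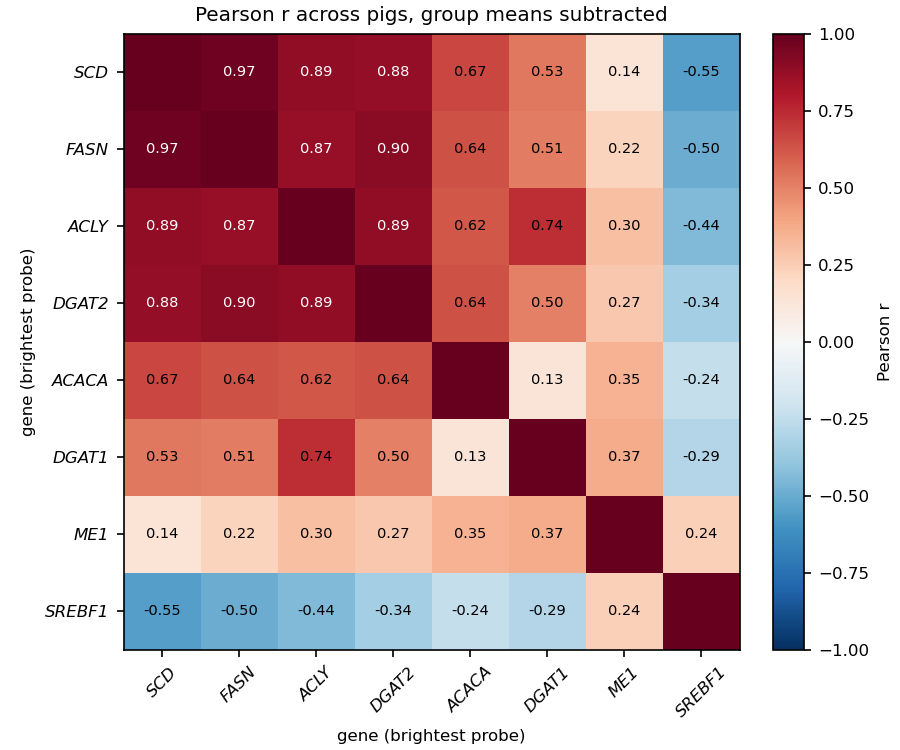
Pearson r between the brightest probes of the 8 genes across pigs after each group's mean was subtracted (colour scale from -1 to 1, with the value in each cell). SCD, FASN, ACLY and DGAT2 form a block with r of 0.87 or more, ACACA joins it at 0.62 to 0.67, and SREBF1 is negative with each of these.

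The summed signal of fat cell markers moved with SCD, as did 7 of its 10 kept markers with an r over 0.5. Of 13 adipocyte markers listed, 12 were on the array and 10 were kept, with PLIN1 well above background on 3 arrays and RETN on 8. The log2 of their summed signal had a lowest, median and highest value of 4.62, 4.89 and 5.91 in low-RFI pigs, 4.63, 5.42 and 6.46 in restricted pigs, and 4.55, 5.40 and 7.21 in freely fed high-RFI pigs. Its r with SCD was 0.89 and its rho 0.87 (permutation p = 1e-05 for each, the smallest possible, adjusted over 4 marker sums 4e-05), 0.89 and 0.93 within the scan days and 0.88 without the 2 farthest pigs. The part of fat cells between the fibres in the differences of SCD, FASN, ACLY and DGAT2 was not tested. The summed signal of the 12 muscle fibre markers ran from 12.83 to 13.04 in low-RFI, 12.62 to 13.16 in restricted and 12.59 to 13.04 in freely fed high-RFI pigs, and its r with SCD was -0.49 and its rho -0.53 (adjusted permutation p = 0.0474 and 0.0274). For 4 leukocyte markers the r was 0.02 and rho -0.07 (adjusted permutation p = 0.946 and 0.775), and for 7 fibroblast and endothelial markers 0.34 and 0.30 (0.201 and 0.244). Such a sum follows its brightest probes most. By single marker, the r with SCD ran from -0.65 to 0.27 for muscle fibre and from -0.13 to 0.01 for leukocyte markers. It ran from -0.07 to 0.56 for fibroblast and endothelial markers.

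Among single adipocyte markers CIDEC, which coats lipid droplets, had an r of 0.98 with SCD (rho 0.96), ADIPOQ, the adipokine adiponectin, 0.96 (rho 0.96) and CEBPA, a transcription factor of fat cells, 0.93 (rho 0.93), with an adjusted permutation p = 0.00023 for each over the 92 genes of the lists. The r of the 10 kept markers ran from 0.05 to 0.98, and the low end was AQP7 (r 0.05, rho 0.02), LEP, the hormone leptin (r 0.07, rho 0.11), and PCK1, an enzyme of glyceroneogenesis (r 0.09, rho 0.10), with adjusted permutation p of 0.941 for each r. In low-RFI against high-RFI pigs all 10 kept markers were lower, with a median of -0.49 (44.7% of all probes lower, median 0.02). Some were near 0, such as PCK1 at -0.05 and LEP at -0.09. None passed in limma, and 2 of 10 had an unadjusted p under 0.05, against 11.1% of all probes. LIPE, the hormone-sensitive lipase, had -0.72 (SE 0.26, limma adjusted p = 0.29) and CEBPA -0.87 (SE 0.42, adjusted p = 0.449). FABP4, the fatty acid carrier of fat cells, stood at -0.53 (SE 0.32, adjusted p = 0.568) and the glycerol channel AQP7 at -0.44 (SE 0.26, adjusted p = 0.567). In restricted against freely fed pigs 6 of 10 markers were lower, with a median of -0.06 (46.9% of all probes lower, median 0.01). In low-RFI against restricted pigs 8 of 10 were lower, with a median of -0.35 (45.3% of all probes lower, median 0.02).

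**Figure D5:**
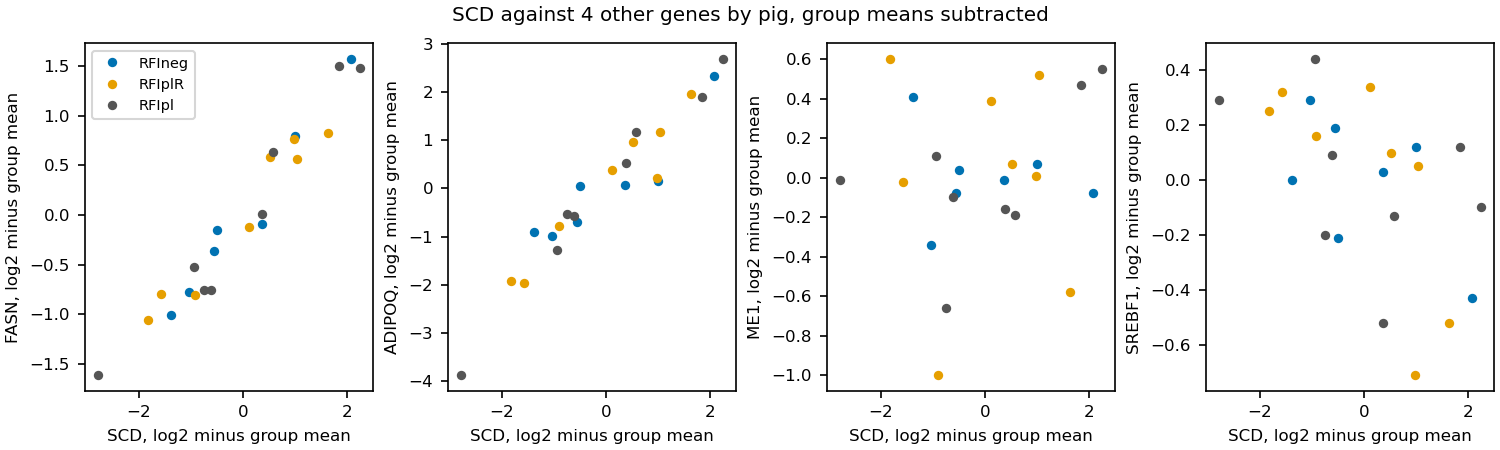
SCD level (x axis) against FASN, ADIPOQ, ME1 and SREBF1 (y axes) in the 23 pigs, each as log2 level minus its group mean, coloured by group. FASN (r 0.97) and ADIPOQ (r 0.96) rise along a line with SCD in all 3 groups, ME1 (r 0.14) shows none over all pigs, and SREBF1 (r -0.55) falls.

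The 6 genes outside the members whose level was most like the mean standardised level of FASN, SCD, ACACA, ACLY and ME1 were taken from 3776 measured genes. They were MGST1 (r 0.92), a microsomal glutathione transferase, UGT1A6 (r 0.91), a glucuronosyltransferase, MAL2 (r 0.89), a membrane trafficking protein, and CIDEC (r 0.89), CEBPA (r 0.89) and CIDEA (r 0.87), the last a lipid droplet protein related to CIDEC. These are the highest of many correlations over 23 pigs and are given as a description, without a test. Their low-RFI minus high-RFI differences ran from -1.14 for CIDEC to -0.19 for CIDEA, with limma adjusted p between 0.449 and 0.905.

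Other genes of lipid metabolism were examined by list, and their counts at an unadjusted p under 0.05 stand beside 11.1%, 9.76% and 10.2% of all probes in the 3 comparisons. Of 32 listed partners of fatty acid synthesis, such as those that supply NADPH, activate acetate and fatty acids or elongate them, 15 were measured. In limma 0 passed in any comparison, with 0, 0 and 2 at an unadjusted p under 0.05 for low-RFI against high-RFI, restricted against freely fed and low-RFI against restricted pigs, and medians of -0.01, 0.04 and -0.01. Their median r with SCD was -0.03, and 2 of 15 had an r over 0.5. ACSS2, which activates acetate, had -0.27 (SE 0.11, limma adjusted p = 0.402) and NR1H3, the nuclear receptor LXR alpha that acts on the SREBF1 gene, -0.22 (SE 0.09, adjusted p = 0.416) for low-RFI minus restricted. The acyl-CoA synthetases ACSL1 and ACSL4 stood at 0.26 (adjusted p = 0.458) and 0.12 (adjusted p = 0.734) for low-RFI minus high-RFI.

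Of 24 genes of glycerolipid assembly 13 were measured, and 0 passed in limma in any comparison, with 1, 2 and 0 at an unadjusted p under 0.05 and medians of -0.13, 0.02 and -0.05. LPIN1, the phosphatidate phosphatase that makes diacylglycerol, had 0.37 for low-RFI minus high-RFI (SE 0.16, limma adjusted p = 0.379). The acyltransferases AGPAT5 and AGPAT3 had -0.33 (SE 0.13, adjusted p = 0.372) and 0.26 (SE 0.12, adjusted p = 0.493) for restricted minus freely fed, and GPAT4 had 0.15 (SE 0.14, adjusted p = 0.806). Of 10 measured genes of lipid droplets and lipolysis 0 passed in limma in any comparison, with 2, 2 and 4 at an unadjusted p under 0.05. Here restricted minus freely fed was 0.49 (SE 0.16, limma adjusted p = 0.263) for PNPLA2, the adipose triglyceride lipase, and -0.40 (SE 0.12, adjusted p = 0.189) for MGLL, which splits monoglycerides. Low-RFI minus high-RFI was -0.53 (SE 0.17, limma adjusted p = 0.234) for ABHD5, the activator of PNPLA2, and 0.29 (SE 0.09, adjusted p = 0.21) for FITM1, a protein of lipid droplet formation in muscle.

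Cholesterol synthesis and uptake, the other SREBP branch, had 9 measured genes of 22 listed. In limma 0 passed in any comparison, with 1, 1 and 2 at an unadjusted p under 0.05, and their r with SCD ran from -0.37 to 0.37. The demethylase CYP51 had 0.63 for low-RFI minus restricted (SE 0.18, limma adjusted p = 0.194). FDPS stood at 0.23 (SE 0.10, adjusted p = 0.423) for low-RFI minus high-RFI and PMVK at 0.23 (SE 0.09, adjusted p = 0.357) for restricted minus freely fed. Of 12 measured genes of fatty acid oxidation 0 passed in limma in any comparison, with 0, 0 and 1 at an unadjusted p under 0.05, and their r with SCD ran from -0.47 to 0.15. In restricted against freely fed pigs 11 of these 12 were higher, with a median of 0.14 (46.9% of all probes lower, median 0.01), and in low-RFI against restricted pigs 10 were lower, with a median of -0.15 (45.3% of all probes lower, median 0.02). HADH had -0.28 (SE 0.10, limma adjusted p = 0.337) and ACADS -0.26 (SE 0.13, adjusted p = 0.502) for low-RFI minus restricted, and CPT1A, the gate of mitochondrial fatty acid entry, 0.54 (SE 0.27, adjusted p = 0.539) for restricted minus freely fed.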

How the data were processed

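Total RNA of each pig was labelled with Cy3 and hybridised to a 1-colour Agilent array, per the labels' protocols. The spot intensity values deposited by the authors were background-subtracted by Feature Extraction 10.7.3.1, per the file headers, and were not scaled between arrays. The deposited log2 value table had 26410 rows, 1 for each spot, which covered 26316 probes. It held log2 processed signals from which each array had its own constant subtracted, with a median of 0 in each column. This table was used as an alternative only. How its probes were selected is not given in the sources used here. The submitters' processing notes name R 2.10.0.

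For the analysis, log2 processed signal minus the array's 75th percentile was used, spots with the scanner's non-uniformity or population outlier mark became missing values, and spots of a probe were averaged. The 1417 control spots were not used. The filter on dim probes required a signal well above background on 6 or more arrays of any 1 group, which 27799 of 43603 probes met. The 3 groups were fitted together without a covariate in limma 3.58.1 under R 4.3.3, with Benjamini-Hochberg adjustment of p-values over all 27799 kept probes. Standard errors and 95% intervals are limma's. The number of arrays limits the precision. Where a gene has 1 value, it is that of its brightest kept probe. All members were named with every probe, up to 4 genes of each other list by the smallest p of the F test, and 6 genes by likeness to the members. ADIPOQ, LEP and PCK1 were named beside these after their values were seen. A gene that this rule takes and a probe sequence are not reported here. Leukocyte, fibroblast, endothelial and muscle fibre markers are given as sums and as ranges of r. The members, the lists and the settings were chosen with earlier results of these data known. The scripts were tested on simulated data. Alternatives were the scaling, background correction, filter, variance model, blocks for slide, scan day and replicate number, leaving out each pig, fits of 2 groups and, added after the data were seen, the probes matched by accession and a fit without slide 3. Replicate numbers were not taken as pairs in the main fit, and whether they pair the pigs was not settled.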

Additional observations from a re-analysis of the deposited data

Results flagged for a closer look

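DGAT1 had 2 pigs far from the rest of their group. Restricted replicate 7 was lowest at -0.86, with the next pig at -0.52, a gap of 0.612 of the group's whole range (8 pigs). High-RFI replicate 2 was highest at 0.10, with the next pig at -0.43, a gap of 0.567 of the range (8 pigs). Both exceeded Dixon's critical value of 0.526, which chance exceeds in about 1 of 20 groups. Of 72 combinations of probe and group examined, these 2 were flagged, which is 2.78% and fewer than the 5% that chance gives. High-RFI replicate 2 was also the highest pig for SCD, ACLY and DGAT2.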

How the results depend on the processing

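The count of member probes past the threshold was 0 in each comparison and in the F test under every setting run but 1: without the 4 arrays of slide 3, 1 probe passed for low-RFI against restricted pigs and 1 in the F test, both the ME1 probe (-0.99). The median differences ran from -0.65 to -0.37 for low-RFI minus high-RFI, from -0.55 to -0.21 for restricted minus freely fed and from -0.37 to 0.05 for low-RFI minus restricted, where the sign turned. Of the values of single genes under the alternatives, 868 kept direction and call, 40 turned sign and 1 gained a call. With normexp background correction, which put the median of all probes at 0.21 for restricted minus freely fed and at -0.14 for low-RFI minus restricted, beside 0.01 and 0.02, the sign turned for low-RFI minus high-RFI of ACACA (0.08) and DGAT1 (0.00), for restricted minus freely fed of ME1 (-0.21), ACACA (0.59), DGAT2 (0.01) and SREBF1 (-0.70), and for low-RFI minus restricted of ACACA (-0.51), FASN (0.41) and ACLY (0.12). It also moved restricted minus freely fed of FASN to -1.36 and of ACLY to -0.82, and low-RFI minus high-RFI of DGAT2 to -0.25. Low-RFI minus restricted of ACACA, near 0, also turned with median centring (-0.02), quantile normalization (-0.04), the deposited values (-0.01), array weights (-0.04), slide as a fixed block (-0.12) and slide as a random block (-0.04). That of DGAT2 turned with array weights (0.04), the mean of a gene's probes (0.00) and without slide 3 (0.06), that of FASN without slide 3 (0.04), restricted minus freely fed of DGAT1 without slide 3 (-0.04), and that of SREBF1 with quantile normalization (-0.03). The causes were not tested. Leaving out 1 pig at a time gave low-RFI minus restricted of -0.19 to 0.32 for ACACA, -0.33 to 0.06 for DGAT2 and -0.40 to 0.03 for FASN, restricted minus freely fed of -0.01 to 0.12 for DGAT1, -0.01 to 0.23 for ME1 and -0.04 to 0.13 for SREBF1, and low-RFI minus high-RFI of -0.12 to 0.02 for DGAT1. The lowest adjusted p of ME1 for low-RFI minus restricted was 0.0525 with array weights (-0.80) and 0.0938 without restricted replicate 6 (-0.80), apart from the fit without slide 3. Over all probes, the count of calls for low-RFI against high-RFI ran from 0 (normexp) to 103 (array weights) beside 34, for low-RFI against restricted from 0 (normexp) to 99 (array weights) beside 45, and for restricted against freely fed from 0 (median centring, among others) to 3 (scan day as a block) beside 1, and to 7 with 1 pig left out. Of the same-numbered pairs, 2 of 7, 4 of 8 and 1 of 7 had an r over 0.1, which alone cannot decide whether replicate numbers pair the pigs. With the replicate number as a block, 0 member probes passed, the medians were -0.52, -0.35 and -0.02 in the 3 comparisons, and no call changed. Signal over background limits ACACA and FASN probe 3.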
